A study of Mus musculus with 7 samples.

Results

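The genes described here encode respiratory complexes II, III, IV and V and cytochrome c. They were taken from the table by symbol: every row that begins with Sdha, Sdhb, Sdhc, Sdhd, Uqcr, Cox4, Cox5, Cox6, Cox7, Cox8 or Atp5, with Cyc1 and Cycs, and without pseudogene symbols. This gave 51 of 23420 gene rows. By role, 46 are subunits or cytochrome c and 5 are not: the assembly factors Sdhaf1 and Sdhaf2, the supercomplex factor Cox7a2l, and Atp5s and Atp5sl. A filter on low levels (10 or more normalized counts in 3 or more libraries) passed 49 of them. Those left out were Cox7b2 and Cox8c, both testis isoforms. A normalized count is a gene's reads divided by a size factor for its library.

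Bulk sequencing of total RNA compared hearts of mice that model the myocarditis seen under immune checkpoint inhibitor (ICI) therapy with hearts of unaffected mice. All 7 animals lacked Pdcd1, which encodes the checkpoint receptor PD-1, so the controls carried this deletion too. The 4 controls were Ctla4+/+ and the 3 ICI-myocarditis animals were Ctla4+/-, with 1 working copy of the gene for the checkpoint receptor CTLA-4. All were untreated and 3 to 6 weeks old, and the tissue was ventricle in the protocol and whole heart in the tissue label. The deletions are not stated to be limited to any cell type.

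Complex II oxidizes succinate, complex III passes electrons from ubiquinol to cytochrome c, and complex IV passes them on to oxygen. Complex V, the ATP synthase, makes ATP from the proton gradient that complexes I, III and IV build across the inner mitochondrial membrane. Cardiomyocytes are packed with mitochondria and depend on this chain for contraction, and they use muscle isoforms of several complex IV subunits: Cox6a2, Cox7a1 and Cox8b in place of Cox6a1, Cox7a2 and Cox8a, which most other cells use.

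The sequences just before the start sites of these isoform genes are shown because the isoform pairs are compared below. They are the 250 bases before the RefSeq start on GRCm38.p6, 5′ to 3′ on the gene's own strand, with capitals marking any of 4 searched motifs, on either strand.
Cox6a1, chr5:115348959-115349208, minus strand: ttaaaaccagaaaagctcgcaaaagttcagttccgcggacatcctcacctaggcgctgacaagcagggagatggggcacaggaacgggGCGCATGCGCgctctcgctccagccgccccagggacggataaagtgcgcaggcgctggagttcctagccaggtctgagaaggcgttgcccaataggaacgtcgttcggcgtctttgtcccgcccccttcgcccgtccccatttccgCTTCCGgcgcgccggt
Cox7a1, chr7:30183921-30184170, plus strand: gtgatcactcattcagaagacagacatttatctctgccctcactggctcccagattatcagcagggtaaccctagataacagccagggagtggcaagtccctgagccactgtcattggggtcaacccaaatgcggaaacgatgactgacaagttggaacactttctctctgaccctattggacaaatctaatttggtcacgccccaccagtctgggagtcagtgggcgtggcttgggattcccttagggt
Cox7a2, chr9:79759854-79760103, minus strand: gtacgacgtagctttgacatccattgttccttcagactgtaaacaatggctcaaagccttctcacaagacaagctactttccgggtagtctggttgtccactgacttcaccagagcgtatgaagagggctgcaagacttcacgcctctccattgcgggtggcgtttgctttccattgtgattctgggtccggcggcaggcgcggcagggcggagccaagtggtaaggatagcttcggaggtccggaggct
Cox8a, chr19:7217617-7217866, minus strand: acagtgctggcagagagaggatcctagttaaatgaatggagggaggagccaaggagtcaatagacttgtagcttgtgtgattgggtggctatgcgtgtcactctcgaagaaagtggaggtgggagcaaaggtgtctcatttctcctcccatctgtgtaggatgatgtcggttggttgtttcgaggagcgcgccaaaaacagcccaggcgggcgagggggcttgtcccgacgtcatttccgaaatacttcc
Cox8b, chr7:140900447-140900696, minus strand: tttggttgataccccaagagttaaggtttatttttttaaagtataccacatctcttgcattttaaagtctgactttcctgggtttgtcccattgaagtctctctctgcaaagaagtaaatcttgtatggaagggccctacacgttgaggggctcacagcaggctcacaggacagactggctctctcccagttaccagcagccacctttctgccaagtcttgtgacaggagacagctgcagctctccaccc
The muscle isoform Cox7a1 held 4 CpG dinucleotides in this window and Cox8b held 1. Their widely expressed partners held 14 in Cox7a2 and 11 in Cox8a, and Cox6a1 held 26, where the median of all 32851 windows was 6. No window was matched for Cox6a2, the muscle partner of Cox6a1. The capitals in Cox6a1 are an NRF1 motif, read on both strands in overlapping letters, and an ETS motif. RefSeq windows were matched for 37 of the 51 genes, 40 windows in all. The NRF1 motif GCGCATGC was in 15% of these 40 windows and in 2.26% of all windows. The ETS motif CGGAAG was in 37.5% against 13.6%, the ERR motif CAAGGTCA in 5% against 1.33% and the MEF2 motif, CTA and TAG with 4 bases between them, in 2.5% against 3.20% of all windows. The counts behind these shares were 6 windows for NRF1, 15 for ETS, 2 for ERR and 1 for MEF2. Overlapping windows of Atp5c1 hold the same ETS site. The windows of all genes were not matched to those of the members for CpG dinucleotides. A motif match describes the letters only.

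Libraries held 20931730 to 39037176 reads in genes. Pdcd1 read 2.50 to 244 normalized counts in controls and 1096 to 1481 in ICI-myocarditis, and Ctla4 29.2 to 113 and 251 to 373. Neither level checks the genotype labels. The cardiomyocyte markers Myh6, Actc1, Tnnt2 and 7 others were detected in every library, with a summed level of 1368140 to 2735093 in controls and 875522 to 1472436 in ICI-myocarditis. The T cell markers summed to 101 to 1308 and to 5926 to 9054, with all 6 called higher. Control 2 stood apart from the other controls with the highest sum of T cell markers (1308) and of Ptprc, the pan-leukocyte gene, at 2874. ICI-myocarditis 3 had the lowest cardiomyocyte sum and the highest T cell sum, and values without single libraries are given below. In bulk tissue, fewer cells of a type and less RNA per cell cannot be told apart.

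The genes of complexes II to V had lower mean levels in ICI-myocarditis hearts almost throughout, but no single gene passed the test. Of 49 tested, 47 had a log2 fold change below 0 against 51.9% of all 15258 genes tested, and the median was −0.81 against −0.02 for all genes. limma called 0 of the 49 lower at an adjusted p below 0.05, where 4.00% of all genes were called lower, and 0 higher, where 11.7% were. At an unadjusted p below 0.05 there were 10 lower members (12.4% of all genes) and 0 higher (17.7%). edgeR's quasi-likelihood test on recovered reads also called 0 lower (3.49% of all genes), with 12 lower at an unadjusted p below 0.05 (13.2%). DESeq2 called 8 lower (8.40% of all genes) and limma-voom with quality weights 11 (9.95%). The authors' deposited table had 7 members lower at an adjusted p below 0.05: Sdha, Uqcrc1, Cyc1, Cox4i2, Cox6a2, Atp5a1 and Atp5b. That table called 7.35% of all genes lower.

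The count of calls turned on single libraries. Without control 2, limma called 10 members lower (7.19% of all genes): Sdha, Sdhb, Sdhc, Uqcrc1, Cyc1, Cox5b, Cox6a2, Atp5a1, Atp5b and Atp5s. Without ICI-myocarditis 1 it called Uqcrc1 alone (2.23%). Without ICI-myocarditis 3 it called 0 (1.04%), the median over the members was −0.35, and 40 of 49 lay below 0. The median was −0.51 without control 4, and 44 of 49 lay below 0. Without both control 2 and ICI-myocarditis 3 the median was −0.62, and Sdha and Cox6a2 were called (3.29%). Scaling by total reads moved the median of all genes from −0.02 to 0.13. The median over the members was then −0.65, and Sdha and Uqcrc1 were called (2.04% of all genes lower).

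Fold changes of single genes moved as well. Without ICI-myocarditis 3, 42 of the 49 log2 fold changes came nearer to 0 by over 1.5 times or changed sign, 7 of them changing sign. Without control 4 this held for 23, 3 of them changing sign. In the other direction, 21 moved away from 0 by over 1.5 times without ICI-myocarditis 1, and 13 without control 2.

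The libraries kept nearly the same order across the members. Control 4 was the highest of the 7 in 48 of 49 genes, and ICI-myocarditis 3 was the lowest in 44, with control 2 lowest in the other 5. Control 2 was the lowest control in 45. ICI-myocarditis 1 lay above control 2 in 44 genes and above the control mean in 14. Among the ICI-myocarditis libraries the order 1, 2, 3 from high to low held in 46. The ranges of the groups therefore overlapped for most genes. All 3 ICI-myocarditis libraries lay below all 4 controls for 5 of 49 (11.3% of all genes): Sdha, Uqcrc1, Cox4i2, Atp5b and Atp5a1. None lay above all controls (17.3% of all genes).

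**Figure D1:**
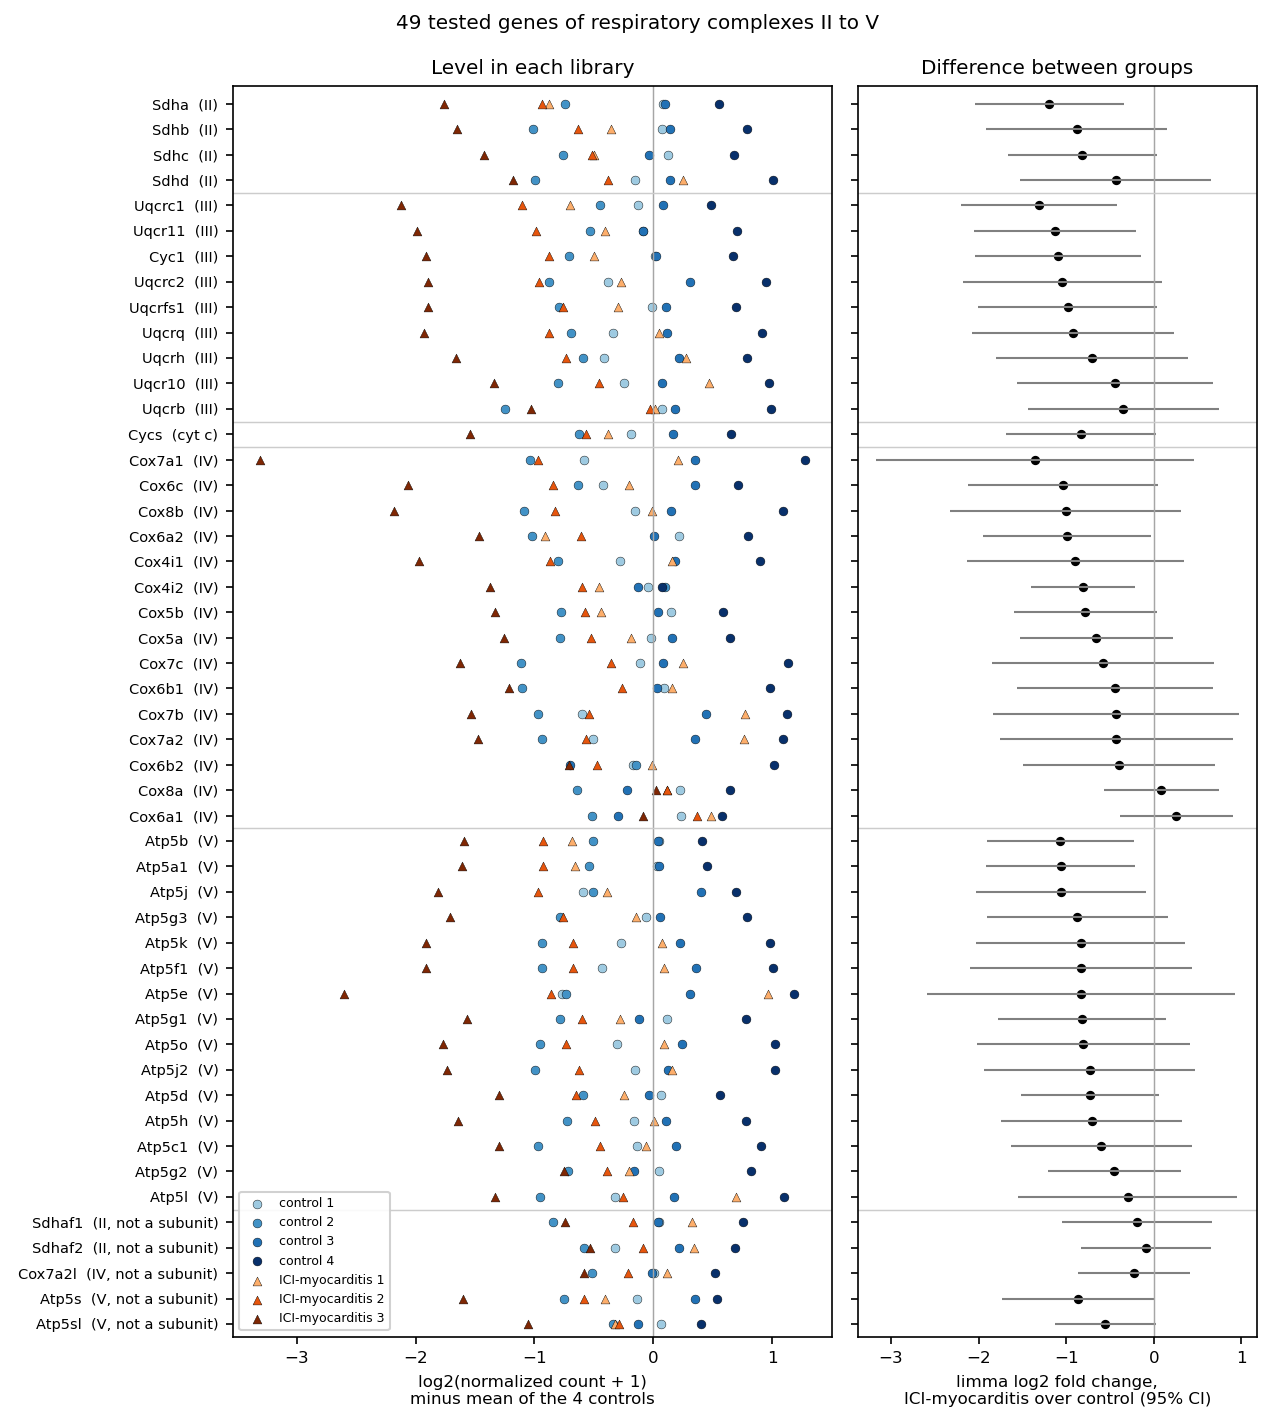
Left, the level of each of the 49 tested genes in each library, as log2(normalized count + 1) minus the mean of the 4 controls (circles, controls; triangles, ICI-myocarditis). Right, the limma log2 fold change with its 95% confidence interval. Control 4 is the highest point in 48 rows and ICI-myocarditis 3 the lowest in 44, and ICI-myocarditis 1 lies above control 2 in 44.

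Together the 51 genes took 2.74%, 2.28%, 3.49% and 4.23% of reads in controls 1 to 4. They took 2.86%, 1.98% and 1.12% in ICI-myocarditis 1 to 3. ICI-myocarditis 1 thus lay inside the control range, and the other two lay below it. Per kilobase of transcript, the highest mean levels in controls were those of Atp5b at 85789 normalized counts per kilobase, Cox4i1 at 73075 and Cox7a1 at 65413.

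In complex II the 4 subunits had log2 fold changes with a median of −0.85. Sdha, the flavoprotein that oxidizes succinate, read 39224, 22053, 39704 and 54386 normalized counts in controls and 20156, 19277 and 10893 in ICI-myocarditis. Every ICI-myocarditis library was below every control, though the 2 nearest, ICI-myocarditis 1 and control 2, were close. The log2 fold change was −1.19 ± 0.38 (SE; limma adjusted p = 0.0627). Sdhc, a membrane anchor, read 12043, 6540, 10786 and 17699 in controls and 7821, 7749 and 4118 in ICI-myocarditis. Control 2 lay below 2 of the 3 ICI-myocarditis libraries, and the log2 fold change was −0.81 ± 0.38 (limma adjusted p = 0.182), or −0.51 without ICI-myocarditis 3. Sdhd, the other anchor, had the smallest difference of the complex, −0.43 ± 0.48 (limma adjusted p = 0.600), and ICI-myocarditis 1 (11429) lay above 3 of the 4 controls. Without ICI-myocarditis 3 it was −0.063. The iron-sulfur subunit Sdhb was at −0.88, and at −0.50 without that library.

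The assembly factors of complex II had log2 fold changes nearer 0 than its subunits, a difference that was not tested. Sdhaf1, which serves the iron-sulfur subunit, was at −0.19 ± 0.38 (limma adjusted p = 0.782). Sdhaf2, which serves the attachment of flavin to Sdha, was at −0.09 ± 0.33 (limma adjusted p = 0.887). Both turned above 0 without ICI-myocarditis 3 and without control 4, and Sdhaf2 also with scaling by total reads.

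Complex III had a median of −0.98 over 9 subunits, all below 0. This was the lowest of the 4 complexes, but without control 2 and ICI-myocarditis 3 complex II was lower by a narrow margin (−0.80 against −0.79). Uqcrc1, core protein 1, read 44759, 35889, 51790 and 68562 in controls and 30152, 22682 and 11197 in ICI-myocarditis. The groups did not overlap, and ICI-myocarditis 3 was far below the other 6 libraries. The log2 fold change was −1.31 ± 0.40 (limma adjusted p = 0.0538), the lowest p among the members. Uqcr11, a small subunit, read 11250, 8237, 11217 and 19409 in controls and 8985, 6014 and 3004 in ICI-myocarditis. Only ICI-myocarditis 1 reached into the control range, above control 2. The log2 fold change was −1.13 ± 0.41 (limma adjusted p = 0.0996), or −0.70 without ICI-myocarditis 3. Cyc1, cytochrome c1, was at −1.10 ± 0.42 (limma adjusted p = 0.114), and the Rieske iron-sulfur protein Uqcrfs1 was at −0.98. Without ICI-myocarditis 3 they were at −0.69 and −0.52. At the other end, Uqcrb, a small subunit, was at −0.35 ± 0.49 (limma adjusted p = 0.686). Its lowest level was in control 2, at 1850, and without ICI-myocarditis 3 it was at −0.0056. Cycs, the mobile electron carrier between complexes III and IV, was at −0.83 ± 0.38 (limma adjusted p = 0.180), and at −0.47 without ICI-myocarditis 3.

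Complex IV had a median of −0.66 over 15 tested subunits, the nearest to 0 of the 4 complexes with all libraries but not without ICI-myocarditis 3, where complex V was nearer (−0.30 against −0.35). With all libraries it was the only complex with subunits above 0. These were Cox6a1 at 0.26 and Cox8a at 0.09, both widely expressed isoforms. Cox4i2, the isoform of subunit 4 known from lung and from the response to low oxygen, read 281, 311, 265 and 305 in controls and 211, 191 and 112 in ICI-myocarditis. Its controls were closer together than those of any gene named above, control 2 was the highest of them, and the groups did not overlap. The log2 fold change was −0.81 ± 0.26 (limma adjusted p = 0.0675). Its partner Cox4i1 was at −0.89 ± 0.55 (limma adjusted p = 0.317). Without ICI-myocarditis 3 they were at −0.53 and −0.35.

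The testis isoforms were at or near 0. Cox6b2 read 12.2 to 42.5 normalized counts across libraries and was at −0.40 ± 0.49 (limma adjusted p = 0.642), or −0.24 without ICI-myocarditis 3 and −0.058 without control 4. Cox7b2 read 2.50 in control 4, 1.02 and 0.725 in ICI-myocarditis 1 and 2, and 0 elsewhere. Cox8c had no read in any library, a count that allows up to 3 reads, or 2.17 to 3.75 normalized counts. Cox7a2l, which acts in joining complexes III and IV, was at −0.23 ± 0.28 (limma adjusted p = 0.644), or −0.049 without ICI-myocarditis 3 and −0.056 without control 4.

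Complex V had a median of −0.82 over 15 subunits, all below 0. Atp5b, the catalytic F1 beta subunit, read 166294, 113190, 165297 and 212706 in controls and 100091, 84479 and 53182 in ICI-myocarditis. Atp5a1, F1 alpha, read 128709, 86428, 130321 and 172579 in controls and 79738, 66208 and 41184 in ICI-myocarditis. For both, every ICI-myocarditis library lay below every control, with ICI-myocarditis 1 just under control 2. Their log2 fold changes were −1.07 ± 0.37 (limma adjusted p = 0.0860) and −1.06 ± 0.38 (limma adjusted p = 0.0886). Atp5l, membrane subunit g, was at the other end at −0.30 ± 0.55 (limma adjusted p = 0.767), and it turned above 0 without ICI-myocarditis 3 (0.22) and without control 4 (0.067). Atp5e, F1 epsilon, chosen after its values were seen, read 8544, 8757, 18044 and 33093 in controls and 28390, 8012 and 2398 in ICI-myocarditis. ICI-myocarditis 1 was 11.8 times ICI-myocarditis 3 for this gene, the widest gap among the tested members, against 1.88 times for Atp5b. Without ICI-myocarditis 3 its log2 fold change was 0.053.

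The c-ring is encoded by Atp5g1, Atp5g2 and Atp5g3, whose mature proteins are identical. Atp5g2 made up 5.59%, 5.71%, 4.96% and 5.61% of their summed normalized counts in controls and 5.44%, 6.69% and 9.73% in ICI-myocarditis. ICI-myocarditis 1 lay within the control range and the other two above it. These genes have near copies in the genome, and how reads shared between copies were counted is not given in the sources used here. Of the genes named for the ATP synthase that are not subunits, Atp5s was at −0.86 ± 0.38 (limma adjusted p = 0.165) and Atp5sl at −0.55 ± 0.26 (limma adjusted p = 0.182). Without ICI-myocarditis 3 they were at −0.49 and −0.31. Over the 5 genes that are not subunits the median was −0.23.

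The medians of the complexes were close to one another beside the spread between libraries. Without ICI-myocarditis 3 they were −0.50 for complex II, −0.52 for III, −0.35 for IV and −0.30 for V, and −0.47 for cytochrome c. Complex I, taken from its symbols, had a median of −0.86 over 36 tested genes, all below 0. These symbols left out Ndufa4 but kept its relative Ndufa4l2 (−0.35). limma called 2 of the 36 lower, beside 4.00% of all genes: Ndufa5 (log2 fold change −1.33, limma adjusted p = 0.0416) and Ndufa13 (log2 fold change −1.05, limma adjusted p = 0.0460). Each passed in 9 of the 18 alternatives. Ndufa5 was lost without ICI-myocarditis 2 or 3 or control 1, 3 or 4, without control 2 and ICI-myocarditis 3 together, in the replicate block, with edgeR and with scaling by total reads. Ndufa13 was lost without ICI-myocarditis 1, 2 or 3 or control 1, 3 or 4, in the replicate block, with edgeR and with no filter on low values.

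**Figure D2:**
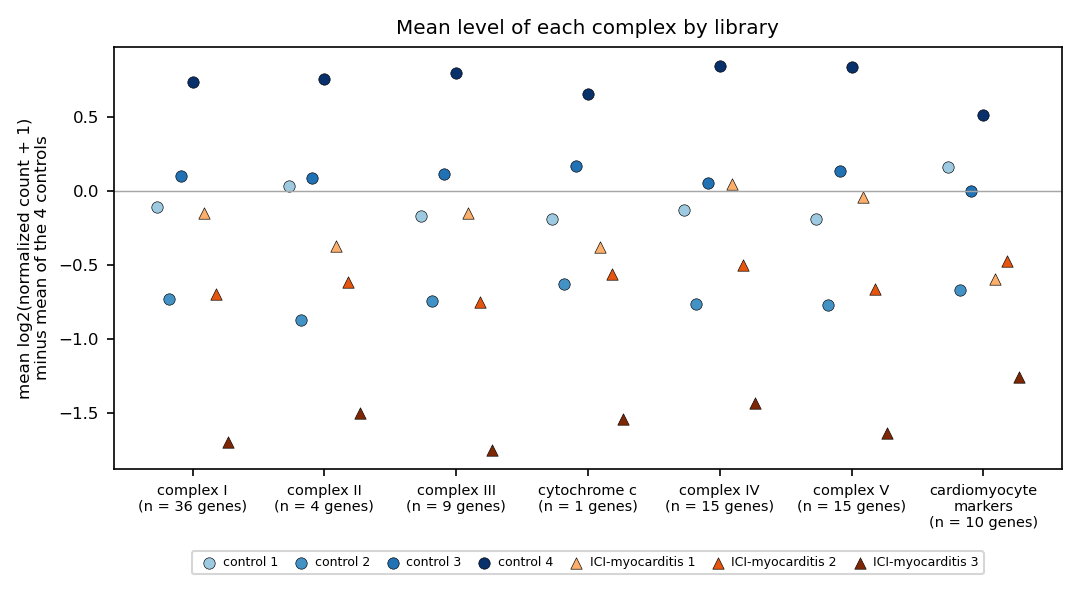
Mean over the genes of each set of log2(normalized count + 1), minus the mean of the 4 controls, in each library (circles, controls; triangles, ICI-myocarditis). In each complex control 4 is highest and ICI-myocarditis 3 lowest; among the cardiomyocyte markers ICI-myocarditis 1 (−0.60) lies near control 2 (−0.67).

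The members were next set relative to one another, as each gene's log2 level minus the mean of the 49 in the same library, a scale chosen after the values had been seen. On it the mean order of the libraries drops out, and values over the members balance around 0. Single genes could still follow that order, as Cox7a1 did (0.27, −0.38 and −1.80 in ICI-myocarditis 1 to 3). Others ran against it on this scale only, as Cox6a1 did (0.55, 0.95 and 1.42). Its normalized counts themselves fell in that order (2595, 2384 and 1743). The mean of the members was itself at −0.72 in ICI-myocarditis, so this scale lifts genes outside the set. The all-gene shares on it are set by that shift and say nothing about the members. All 3 ICI-myocarditis libraries lay below all 4 controls for 6 genes (1.38% of all genes tested), 4 of them among the 9 subunits of complex III: Uqcrc1, Uqcr11, Cyc1 and Uqcrfs1. The other two were Sdha and Atp5g3. For Uqcrc1 the values relative to its control mean were −0.63, −0.52 and −0.62 in ICI-myocarditis, and −0.31 to 0.31 in controls. For Cyc1 they were −0.43, −0.30 and −0.40, against −0.13 to 0.15. The ICI-myocarditis libraries, which were far apart in level, lay close together for Uqcrc1 and Cyc1 on the relative scale (SD 0.060 and 0.072). They also lay close together for members of other complexes, such as Atp5j (SD 0.041) and Cox6b1 (SD 0.051). They did not for Sdha, at −0.81, −0.35 and −0.25 against −0.24 to 0.22 in controls.

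For 3 genes all ICI-myocarditis libraries lay above all controls on this scale (14.8% of all genes tested): Cox6a1, Sdhaf1 and Sdhaf2. For Cox6a1 the values were 0.55, 0.95 and 1.42 in ICI-myocarditis and −0.39 to 0.37 in controls. Between complexes, the mean of complex IV minus that of complex III was higher by 0.20, 0.25 and 0.31 in ICI-myocarditis than the control mean, with controls at −0.06 to 0.05. It was 1 of 7 such differences between sets of genes that were computed, all after the values had been seen, and no test was made of any. The groups did not overlap either for complex III minus complex V (−0.11, −0.09 and −0.12, controls −0.04 to 0.03) and for the members minus complex I (0.09, 0.12 and 0.19, controls −0.03 to 0.06). They overlapped for complexes III, IV and V minus complex II and for the members minus the cardiomyocyte markers.

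**Figure D3:**
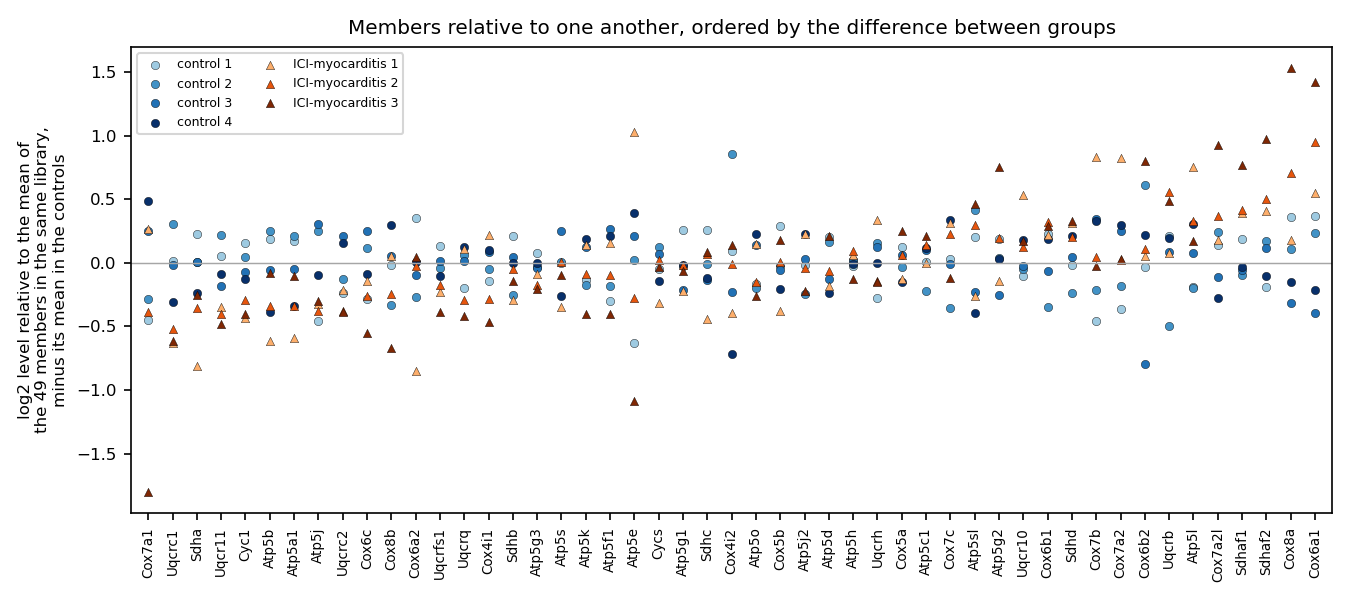
Each point is one gene in one library: its log2 level relative to the mean of the 49 tested genes in that library, minus the gene's control mean (circles, controls; triangles, ICI-myocarditis). Genes run from the lowest difference, Cox7a1, to the highest, Cox6a1 (0.98); for Cox7a1 the low mean rests on ICI-myocarditis 3 at −1.80.

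Within the isoform pairs, the muscle forms were lower relative to their widely expressed partners in most ICI-myocarditis libraries, but no pair passed the test after adjustment. A ratio within a library does not depend on library scaling. Group means were compared with the two-sided exact permutation test, which has 35 arrangements here. Its smallest possible p is 0.0571, so no pair could pass 0.05. With p instead counted on the absolute difference of means, the smallest is 0.0286. Adjusted over the 4 pairs this became 0.0571 here, so it could pass 0.05 only if more pairs had reached it. The second form was tried after the first had been seen, and both are given.

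Cox6a2 read 25713, 10906, 22153 and 38435 in controls and 11732, 14523 and 8018 in ICI-myocarditis, and was at −0.99 ± 0.42 (limma adjusted p = 0.151). Cox6a1 read 2169, 1292, 1509 and 2764 in controls and 2595, 2384 and 1743 in ICI-myocarditis, and was at 0.26 ± 0.29 (limma adjusted p = 0.603). Both genes overlapped between groups, with control 2 low for each. Their log2 ratio was 3.57, 3.08, 3.88 and 3.80 in controls and 2.18, 2.61 and 2.20 in ICI-myocarditis. The ratios did not overlap, and the group means differed by −1.25. The exact permutation p was 0.0571 (adjusted over 4 pairs 0.114), or 0.0286 (adjusted 0.0571) on the absolute difference. Leaving out any 1 library gave a difference between −1.42 and −1.15. Cox6a1 itself lay between 0.08 (without control 2) and 0.45 (without control 4).

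Cox7a1 read 14128, 10304, 26988 and 51409 in controls and 24440, 10838 and 2139 in ICI-myocarditis. It had both the lowest log2 fold change of the members, −1.36, and the largest standard error, 0.81 (limma adjusted p = 0.298), with ICI-myocarditis 1 inside the control range and ICI-myocarditis 3 far below it. Without ICI-myocarditis 3 it was at −0.38, no longer the lowest, and without ICI-myocarditis 1 at −2.14. Cox7a2 was at −0.43 ± 0.59 (limma adjusted p = 0.682), and at 0.10 without ICI-myocarditis 3. The log2 ratio was 1.42, 1.40, 1.51 and 1.69 in controls and 0.95, 1.10 and −0.32 in ICI-myocarditis. It was lower in 3 of 3 ICI-myocarditis libraries than in any control, and the difference was −0.93. The exact permutation p was 0.0571 (adjusted 0.114), or 0.0286 (adjusted 0.0571) on the absolute difference. Without ICI-myocarditis 3 the difference was −0.48.

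Cox8b read 10096, 5290, 12496 and 24010 in controls and 11185, 6333 and 2479 in ICI-myocarditis, and was at −1.01 ± 0.59 (limma adjusted p = 0.289), or −0.42 without ICI-myocarditis 3. Cox8a was nearly level, at 2815, 1542, 2070 and 3767 in controls and 2619, 2622 and 2450 in ICI-myocarditis, and was at 0.09 ± 0.29 (limma adjusted p = 0.877). It turned below 0 without control 2 (−0.13). The log2 ratio was 1.84, 1.78, 2.59 and 2.67 in controls and 2.09, 1.27 and 0.02 in ICI-myocarditis, so that ICI-myocarditis 1 lay inside the control range. The difference was −1.09, with an exact permutation p of 0.171 (adjusted 0.229), or 0.114 (adjusted 0.152) on the absolute difference. Without ICI-myocarditis 3 it was −0.54.

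The pair Cox4i2 and Cox4i1 showed no such shift. Its log2 ratio was −7.20, −6.53, −7.75 and −8.25 in controls and −8.05, −7.16 and −6.83 in ICI-myocarditis. The difference was 0.09 and the exact permutation p 0.914 (adjusted 0.914), or 0.857 on the absolute difference, and it fell on either side of 0 as single libraries were left out.

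**Figure D4:**
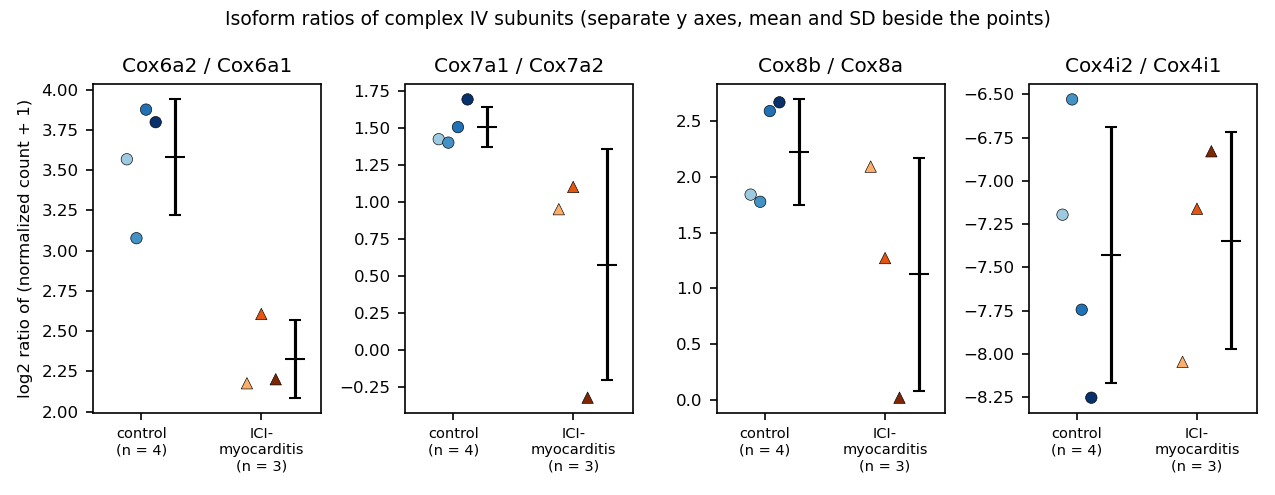
The log2 ratio of (normalized count + 1) for each isoform pair in each library, by group (circles, 4 controls; triangles, 3 ICI-myocarditis), with the mean and SD beside the points and a separate y axis for each pair. The groups do not overlap for Cox6a2 over Cox6a1 and Cox7a1 over Cox7a2; for Cox8b over Cox8a one ICI-myocarditis library (2.09) lies among the controls.

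Markers of other cell types also differed between the groups, in both directions. Fibroblast markers summed to 50364 to 82611 in controls and 129134 to 190429 in ICI-myocarditis, with 3 of 5 called higher. Those 3 were the collagen genes Col1a1, Col1a2 and Col3a1. The others, Pdgfra (log2 fold change 0.27, limma adjusted p = 0.574) and Dcn (0.11, limma adjusted p = 0.877), were not called. Macrophage markers summed to 7110 to 8657 and 27015 to 52501, with 6 of 6 called higher. These cells use the widely expressed isoforms. The part of these or other cell types in the ratios was not tested. Endothelial markers summed to 22917 to 58073 and 14194 to 21324, with 3 of 5 called lower, and smooth muscle and pericyte markers to 32239 to 43076 and 14632 to 19718, with 2 of 4 called lower. Control 4 had the endothelial sum of 22917, with the other controls at 41675 to 58073. No marker of these lists was at 0 in all libraries. The median for the 10 cardiomyocyte markers was −0.76 on the same log2 scale, all 10 below 0 and 0 called. The mean of the members minus the mean of these markers, set to 0 in controls, was 0.53, −0.11 and −0.25 in ICI-myocarditis 1, 2 and 3, and −0.30 to 0.28 in controls. Relative to cardiomyocyte markers the members were thus above the control range in 1 library and within it in 2. Skeletal muscle markers summed to 132 to 293 in controls and 209 to 252 in ICI-myocarditis, and fat markers to 253 to 845 and 333 to 558. Of 4 skeletal muscle markers tested, limma called 1, Tnnt3, higher (log2 fold change 2.18, limma adjusted p = 0.0449). Atp2a1 went the other way (−0.94, limma adjusted p = 0.108) and was not called.

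Among the members, shorter transcripts had wider gaps between libraries. The log2 gap from ICI-myocarditis 3 up to ICI-myocarditis 1 had a median of 1.81 over the 21 tested members with transcripts under 700 nt, 1.43 over the 14 of 700 to 1400 nt and 1.12 over the 14 longer ones. Its Spearman correlation with length over the 49 members was −0.35, and over all genes with a length it was −0.32. These points share 2 libraries. The gap from control 2 up to control 4 had medians of 1.82, 1.59 and 1.29 in the same classes of members. Over all genes its medians were −0.18, 0.36 and −0.05, with no fall along the classes, and its Spearman correlation with length was −0.11. The median log2 fold change was −0.66, −0.80 and −0.85 in the same classes, and the part of length in the results above was not tested.

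Other genes that serve the chain were read from lists. Of 12 tested genes of ubiquinone synthesis, which makes the carrier that feeds complex III, 12 were below 0, beside 51.9% of all genes, and limma called 2 lower, beside 4.00%. Coq7, a hydroxylase of the pathway, read 1521, 1152, 1630 and 2180 in controls and 778, 755 and 478 in ICI-myocarditis, with no overlap, and fell (log2 fold change −1.27 ± 0.26, limma adjusted p = 0.0129). Without ICI-myocarditis 3 the limma adjusted p was 0.0561. Coq10a, a ubiquinone-binding protein, fell too (log2 fold change −1.29 ± 0.37, limma adjusted p = 0.0446). It no longer passed without ICI-myocarditis 2 or 3 or without control 1, 3 or 4, and the replicate block also lost it.

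Among 5 carriers of the inner membrane, 4 were below 0 (51.9% of all genes), with a median of −0.79. limma called 1 higher (11.7% of all genes) and 0 lower (4.00%). Ucp2, an inner membrane carrier that is abundant in immune cells, read 3484, 3877, 2195 and 2596 in controls and 10056, 9656 and 13773 in ICI-myocarditis. It rose by 1.89 ± 0.26 (log2, limma adjusted p = 0.00376). Ucp3, its relative in muscle and named after its values were seen, read 1491, 1948, 3197 and 3768 in controls and 1097, 1248 and 217 in ICI-myocarditis. The groups did not overlap, and the log2 fold change was −1.86 ± 0.59 (limma adjusted p = 0.0624), or −1.06 without ICI-myocarditis 3. Of 12 genes for mitochondrial transcription and biogenesis, 11 were below 0 (51.9% of all genes). limma called 0 of them, where it called 4.00% of all genes lower and 11.7% higher. At an unadjusted p below 0.05, 6 were lower (12.4% of all genes). The 2 of lowest p were Polrmt, the mitochondrial RNA polymerase, at −0.72 ± 0.23 (limma adjusted p = 0.0625) and the coactivator gene Ppargc1b at −0.78 ± 0.26 (limma adjusted p = 0.0712). Both passed with DESeq2 and, in limma, without control 2.

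Among the assembly factors of complexes III, IV and V, limma called 0 with all libraries, where it called 4.00% of all genes lower and 11.7% higher. At an unadjusted p below 0.05, 6 of 27 were lower (12.4% of all genes). The 19 tested for complex IV had a median of −0.25, with 15 below 0 (51.9% of all genes). The 2 of lowest p were Lrpprc, which stabilizes mitochondrial messenger RNA, at −1.01 ± 0.37 (limma adjusted p = 0.0993) and Taco1, a translational activator of a complex IV subunit, at −0.94 ± 0.40 (limma adjusted p = 0.150). The 4 for complex III and cytochrome c had a median of −0.66, led by Hccs, which attaches heme to cytochrome c, at −0.78 ± 0.27 (limma adjusted p = 0.0877), and Ttc19 at −0.61 ± 0.24 (limma adjusted p = 0.127). The 4 for complex V had a median of −0.68, led by Atpaf1, a chaperone of F1, at −0.88 ± 0.30 (limma adjusted p = 0.0829), and Tmem70 at −0.91 ± 0.47 (limma adjusted p = 0.233). Lrpprc, Hccs and Atpaf1 passed with DESeq2, with limma-voom and, in limma, without control 2. Ttc19 passed with limma-voom and without control 2, and Taco1 without control 2. Without ICI-myocarditis 3, Lrpprc was at −0.61, Taco1 at −0.56 and Tmem70 at −0.37. The subunit genes outside the symbol rule, Ndufa4, Usmg5 and 2010107E04Rik, were at −0.81, −0.15 and −0.33. Without ICI-myocarditis 3 they were at −0.16, 0.71 and 0.26.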

How the data were processed

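One table of 23420 gene rows was used. Its library values are a signal deposited by the authors: the values show that each library's gene counts were divided by its own size factor. Per the file headers it also holds the authors' log2 fold changes, a test score and p-values. Reads were aligned with STAR 2.7.3 to GRCm38 (mm10), per the submitters' processing notes. The counting program, annotation and use of strand are not given in the sources used here. Dividing each column by its smallest value gave whole reads (tolerance 0.01) for 100% of values. For control 1 the step was 1.01, so this is a weaker sign there. At 20931730 to 39037176 reads per library, the spread between animals limits precision for all but the low genes, and the limit for a count of 0 covers counting error only.

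The log2 of the normalized count plus 1 was tested with limma 3.58.1 in R 4.3.3 (trended, robust variance) for genes that reached 10 normalized counts in 3 or more libraries, and p-values were adjusted by the Benjamini-Hochberg method over 15258 genes (threshold 0.05). Fold changes on this scale understate those of low genes. Alternatives were edgeR 4.0.16, DESeq2 1.42.0 and limma-voom on recovered reads, TMM and total-read scaling, pseudocounts of 0.5 and 5, no filter or one of 50, a replicate block and leaving out each library. The tests were checked on simulated data. The labels name separate mice, and groups and replicate numbers come from the sample titles.

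Genes were named by rule: in each complex the 2 subunits of lowest p and the 1 of highest, every isoform pair, every testis isoform, every untested or non-subunit member, and of each pathway list the called genes or the 2 of lowest p. Named outside this rule, after their values were seen, were Sdhb, Cyc1, Uqcrfs1, Uqcr10, Cox7b, Atp5e, the c-ring genes, Usmg5 and Ucp3. So were members in the lists of calls and of groups that did not overlap. Members, lists and rule were chosen with earlier results of these data known. Chosen after these values were seen were the relative scale, the differences between sets, the length classes, the motifs and window, the joint removal of 2 libraries, and the permutation p on the absolute difference. The design asked for a two-sided exact permutation test without naming a form. Doubling the smaller tail was run first and stands as the main form. Transcript lengths are medians over principal transcripts of GENCODE M21; a first version that used the longest transcript was replaced because some lengths were implausible. Promoters are from RefSeq.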

Additional observations from a re-analysis of the deposited data

How the results depend on the processing

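Over all genes limma called 2397, between 986 and 3340 with 1 library left out, and 4003 with limma-voom. The count of members called lower was 0, between 0 and 10 with 1 library left out (10 without control 2, 1 without ICI-myocarditis 1), 2 with scaling by total reads, 8 with DESeq2, 11 with limma-voom and 2 without control 2 and ICI-myocarditis 3 together. The other alternatives gave 0 for this count, and all gave 0 called higher. The medians of the 5 sets kept their sign under every alternative run. The isoform ratio differences kept theirs except for Cox4i2 over Cox4i1, which lay between −0.19 and 0.44 with 1 library left out. The replicate block, made of equal replicate numbers, gave −0.19 for that pair. Counting the permutation p on the absolute difference moved no pair past 0.05 after adjustment, where its smallest possible p of 0.0286 became 0.0571.

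The labels do not say whether equal replicate numbers share a litter or day, and the libraries were treated as unpaired. Correlations of deviations were −0.27, −0.21 and −0.08 for equal numbers 1 to 3. Over all pairs of a control and an ICI-myocarditis library they ran from −0.48 to 0.45. Such values cannot exclude a shared litter or day. The replicate block called 1780 of all genes and 0 members, and lost the calls of Coq10a, Ndufa5 and Ndufa13.

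Without ICI-myocarditis 3 the log2 fold change turned above 0 for Sdhaf1 (0.079), Sdhaf2 (0.13), Uqcr10 (0.0069), Cox7a2 (0.099), Cox7b (0.12), Atp5e (0.053), Atp5l (0.22), Usmg5 (0.71) and 2010107E04Rik (0.26). Without control 4, and in the replicate block, which leaves it out, it did so for Sdhaf1 (0.059), Sdhaf2 (0.14) and Atp5l (0.067), and with scaling by total reads for Sdhaf2 (0.068). Usmg5 also turned above 0 without control 4 (0.36). Cox8a turned below 0 without control 2 (−0.13) and without control 2 and ICI-myocarditis 3 together (−0.096). With 1 library left out, the lowest values were −0.48 for Sdhaf1, −0.31 for Sdhaf2, −0.90 for Uqcr10, −1.02 for Cox7a2, −1.03 for Cox7b, −1.73 for Atp5e, −0.80 for Atp5l, −0.94 for Usmg5 and −0.93 for 2010107E04Rik, and the highest for Cox8a was 0.30. The cause was not tested for any of these. Depth limits only Cox6b2, Cox7b2 and Cox8c. With 4 and 3 animals the spread between libraries sets what could pass.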
